A study of Trametes coccinea with 9 samples.

Results

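The comparison described here set mycelium of *Pycnoporus coccineus* harvested from pine cultures against mycelium of the same fungus harvested from aspen cultures. It took in 6 of the 9 RNA-seq libraries of the study, 3 pine and 3 aspen, chosen by their substrate label, and every gene model of the count table. The remaining 3 libraries came from maltose cultures and were used only for a shared estimate of the spread and as a background level. All cultures were of the monokaryotic strain CIRM-BRFM 310, grown as shaken liquid cultures at 30 °C and harvested on day 3. The pine cultures held ground and sifted fragments of *Pinus halepensis* trunk with the bark, and the aspen cultures held Wiley-milled *Populus grandidentata*. The study's methods gave both the same mass of untreated wood and the same small amount of maltose as a starter, while the maltose cultures held maltose as the main carbon source. Tree species and milling thus changed together and cannot be told apart. The methods do not say whether the aspen held bark, so bark may have differed as well. All 9 cultures were of a single strain.

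*P. coccineus* is a white-rot basidiomycete, a fungus that breaks down lignin as well as the wood polysaccharides. Softwood such as pine is rich in galactoglucomannan and in guaiacyl lignin and carries resinous extractives, whereas hardwood such as aspen is rich in acetylated glucuronoxylan and in mixed guaiacyl and syringyl lignin. White-rot fungi attack these polymers with secreted carbohydrate-active enzymes, named here by their CAZy families (GH for glycoside hydrolases, CE for carbohydrate esterases, AA for oxidative auxiliary activities, CBM for carbohydrate-binding modules), with peroxidases that act on lignin, and with intracellular P450 monooxygenases that oxidise small aromatic and resin compounds.

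The 9 libraries held 28399534 to 38654866 counts. Replicates correlated at Pearson r = 0.970 to 0.981 among pine libraries (Spearman rho 0.968 to 0.980) and at 0.984 to 0.994 among aspen libraries (rho 0.982 to 0.994), whereas pine and aspen libraries correlated at 0.913 to 0.965 (rho 0.906 to 0.964; log2(CPM + 1), n = 11130 genes, which are not independent replicates). The first principal component of the 6 wood libraries held 62.4% of the variance and separated the woods. On it pine replicate 1 stood at 22.7, nearer the aspen libraries than pine replicates 2 and 3 (54.2 and 56.9). Aspen replicate 1 stood at -61.3, farther out than aspen replicates 2 and 3 (-38.8 and -33.7). Pine replicates were more spread, with a median SD over genes of 0.352 on the log2 scale, against 0.223 for aspen replicates. Pine replicate 3 stood apart from the other pine libraries on the second component (14.6% of the variance). For a number of lists and genes, values are given with and without it. The study's library table gives 2 trim lengths, both found in both woods, and 2 prefixes of the library code (code prefix below). All 3 pine libraries and aspen replicate 3 carry 1 prefix, whereas aspen replicates 1 and 2 carry the other, which no pine library carries. Code prefix thus changed largely with the wood, and what it marks is not stated.

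Of 12690 gene models, 11130 had a mean raw count of at least 5 over the 9 libraries and were tested with edgeR's quasi-likelihood F-test, and every adjusted p below is from this fit, with Benjamini-Hochberg adjustment over the 11130 genes. Levels are CPM, the counts of a gene scaled by the library total and the TMM factor, fold changes are log2 of pine over aspen, and SE is the standard error of that value. At an adjusted p under 0.05, 1693 genes (15.2% of those tested) were higher on pine and 1676 (15.1%) were lower on pine. The median log2 fold change of the called genes was 1.10 among those higher on pine and -1.01 among those lower on pine. All 3 pine libraries lay above all 3 aspen libraries for 2268 genes (20.4%) and below them for 2761 genes (24.8%). The stricter rule used by the study's methods, an at least 4-fold change with both the Benjamini-Hochberg and the Bonferroni adjusted p under 0.05, was met by 49 genes higher on pine (0.44%) and 51 genes lower on pine (0.458%). The even split depends on the scaling: with library totals alone in place of TMM factors, which moved the median of all genes to -0.31 from -0.05, 906 genes were called higher on pine and 2709 lower on pine. Leaving out aspen replicate 1 gave 1056 and 1128 calls, and leaving out pine replicate 2 gave 1139 and 1102. The 267 tested genes of the carbohydrate-active enzyme table gave 65 higher and 57 lower on pine (41 and 76 with library totals, 42 and 49 without aspen replicate 2, and 28 and 33 with code prefix as a term), and the TMM counts are 24.3% and 21.3% of them. The counts of called members given below for each list are to be read against the 15.2% and 15.1% of all genes tested. In bulk mycelium a change in the share of hyphae that carry a transcript and a change in the amount per hypha cannot be told apart.

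**Figure D1:**
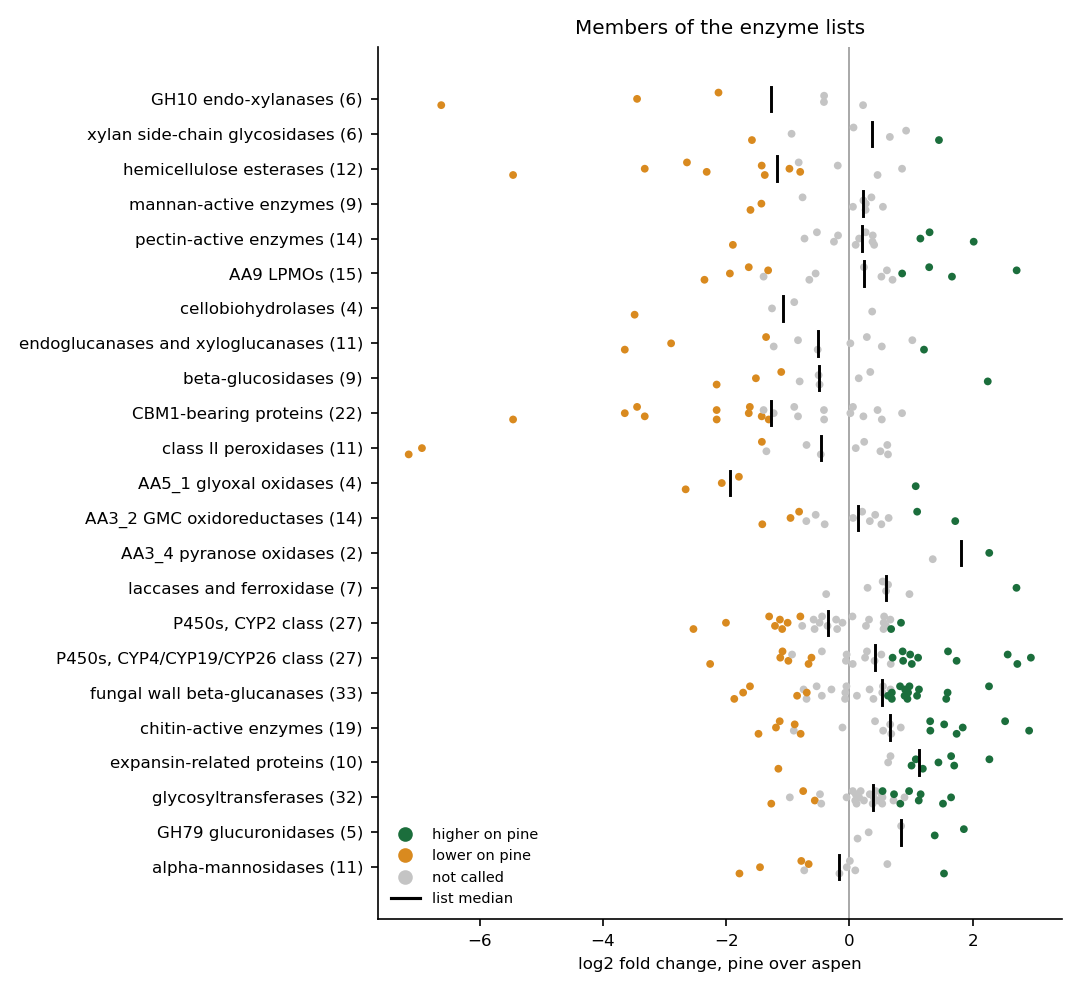
Log2 fold change of pine over aspen for each tested member of 23 enzyme lists, with the number tested in brackets. Each point is a gene, coloured by whether it was called higher or lower on pine, and the black bar is the list median, which is -1.27 for GH10 endo-xylanases and 1.13 for expansin-related proteins.

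**Figure D2:**
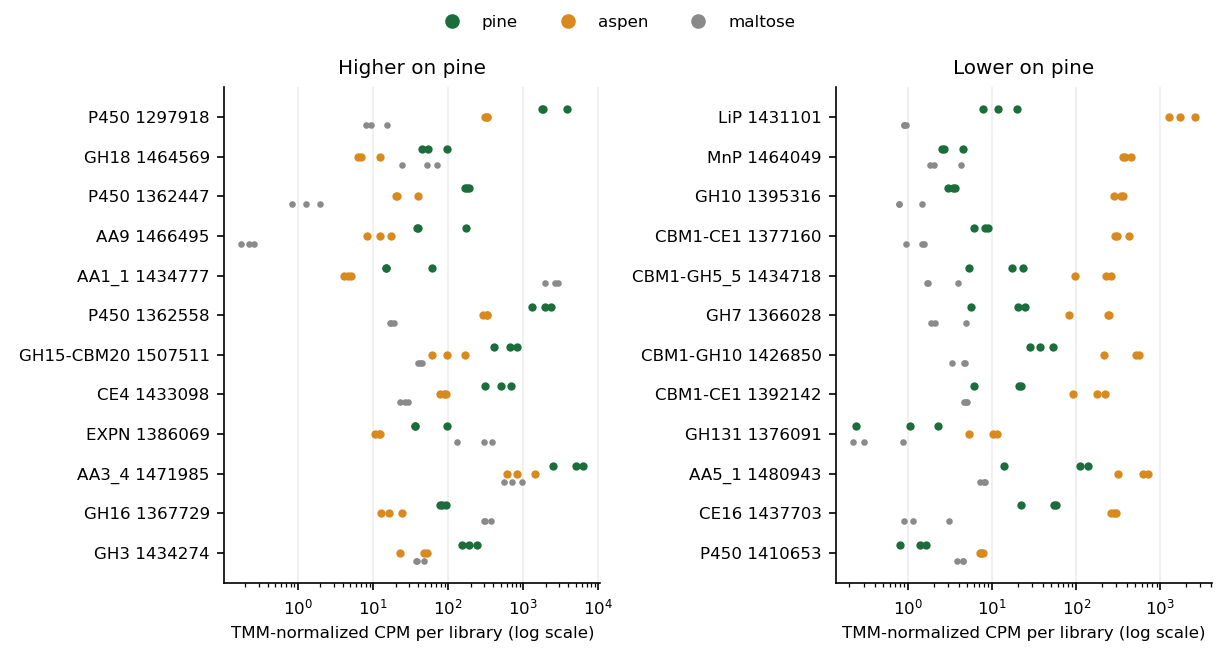
Levels of the 12 carbohydrate-active or P450 genes with the largest called increases on pine (left) and the 12 with the largest called decreases on pine (right), as TMM-normalized CPM on a log axis, 1 point per library (pine, aspen and maltose, 3 each). Only called genes with no overlap between the woods were drawn, so by this choice the pine points lie apart from the aspen points in every row. The widest gap drawn is that of LiP 1431101, at 7.67, 11.6 and 19.9 CPM on pine and 1714, 2577 and 1272 CPM on aspen.

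The largest decreases on pine among annotated enzymes were those of a pair of lignin-active peroxidases. Class II peroxidases are secreted haem enzymes that use hydrogen peroxide to oxidise lignin, directly at a surface tryptophan in lignin peroxidases (LiP) or through manganese in manganese peroxidases (MnP). LiP 1431101 had 7.67, 11.6 and 19.9 CPM on pine, against 1714, 2577 and 1272 CPM on aspen. Every pine library lay far below every aspen library (log2 fold change -7.15, SE 0.43, adjusted p = 5.51e-07). MnP 1464049 had 2.68, 2.53 and 4.50 CPM on pine, against 381, 361 and 444 CPM on aspen (log2 fold change -6.94, SE 0.39, adjusted p = 2.62e-07), again with no overlap. On maltose LiP 1431101 stood at 0.889, 0.885 and 0.947 CPM and MnP 1464049 at 1.84, 2.02 and 4.21 CPM. The log2 fold change over maltose was 0.26 on pine and 7.19 on aspen for MnP 1464049, so that on pine this gene remained near its maltose level, and 3.84 on pine and 10.99 on aspen for LiP 1431101. These 2 comparisons share the 3 maltose libraries. The study itself reported finding no LiP transcripts in these cultures, and the source of that difference was not tested.

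The other class II peroxidases did not show a gap of this kind. The family was picked because the study discussed it on these samples, so its counts are not independent evidence. Of 11 tested, 3 were lower on pine and 0 were higher, or 2 and 1 without pine replicate 2, with a list median of -0.46, against -0.05 over all genes. At an unadjusted p under 0.05, 4 were lower and 1 was higher, and by DESeq2's Wald test 3 were lower and 0 were higher. The third, MnP 1369658, was low throughout, with 2.54, 1.71 and 1.21 CPM on pine, against 4.63, 5.06 and 5.03 CPM on aspen (log2 fold change -1.42, SE 0.44, adjusted p = 0.029), and its call was lost with code prefix as a term and when any 1 library other than pine replicate 1 was left out. MnP 1468611 was high on both woods and at 0.829, 1.49 and 1.74 CPM on maltose. It had 368, 939 and 1791 CPM on pine, against 1436, 2321 and 1259 CPM on aspen, and the woods overlapped (log2 fold change -0.70, SE 0.45, adjusted p = 0.262). MnP 1436321 also overlapped, with 80.3, 401 and 601 CPM on pine, against 238, 449 and 229 CPM on aspen (log2 fold change 0.24, SE 0.54, adjusted p = 0.764). In both, pine replicate 1 was the lowest of the 6 libraries. The 3 versatile peroxidases, 1 of them atypical, and the 3 remaining LiP genes had log2 fold changes of -1.35 to 0.63, none called.

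The peroxidase genes that differed most lie side by side. In the order of gene models of the reference annotation, MnP 1464049, LiP 1431101, LiP 1403742 and LiP 779035 follow each other directly. The first and the second carried the contrast, while LiP 1403742 had 0.288, 0.616 and 0.241 CPM on pine, against 0.172, 0.307 and 0.592 CPM on aspen (log2 fold change 0.10, SE 0.62, adjusted p = 0.918) and LiP 779035 had 0.231, 0.410 and 0.563 CPM on pine, against 0.515, 1.68 and 0.829 CPM on aspen (log2 fold change -1.35, SE 0.58, adjusted p = 0.0947). The 3 models before the group had log2 fold changes of -0.32 to -0.05 and were not called. The gap between the woods was confined to the first pair within this group of 4.

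**Figure D3:**
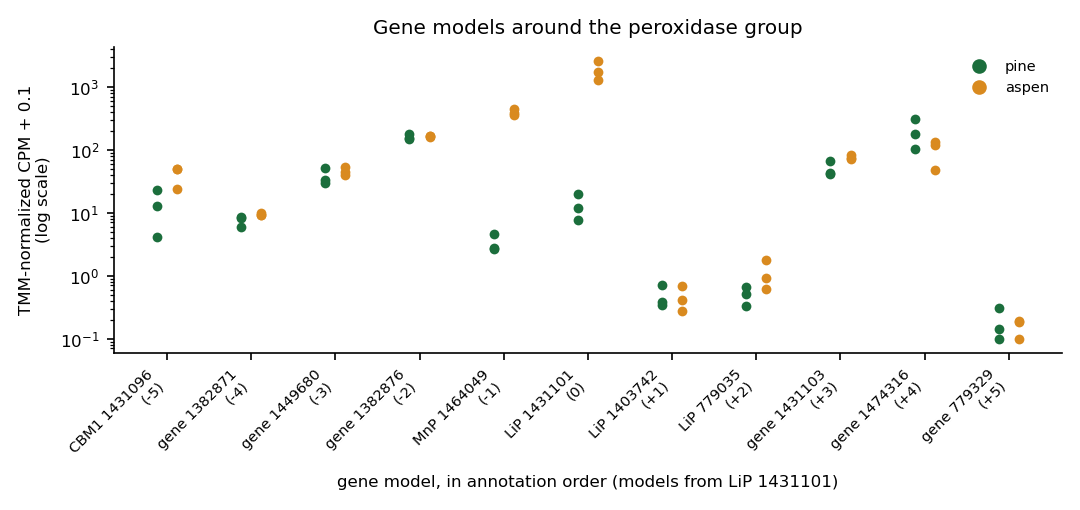
Levels of 11 consecutive gene models around LiP 1431101, in annotation order, as TMM-normalized CPM + 0.1 on a log axis, with 3 pine and 3 aspen libraries as points. MnP 1464049 and LiP 1431101 are far lower on pine than on aspen, while the neighbouring LiP 1403742 and LiP 779035 have at most 1.68 CPM on either wood.

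Enzymes that supply hydrogen peroxide to the peroxidases moved in both directions. Glyoxal oxidases (AA5_1) oxidise small aldehydes and yield hydrogen peroxide. Of 4 in the enzyme table, 3 were lower on pine and 1 was higher, against 15.1% and 15.2% of all genes. AA5_1 1480943 had 13.95, 136 and 110.4 CPM on pine, against 709, 615 and 317 CPM on aspen (log2 fold change -2.66, SE 0.59, adjusted p = 0.00566). AA5_1 1376269 had 6.92, 28.6 and 53.6 CPM on pine, against 102, 171 and 101 CPM on aspen (log2 fold change -2.07, SE 0.52, adjusted p = 0.0103), and without pine replicate 3 its log2 fold change was -2.81. AA5_1 1454649, the gene next to 1480943 in the annotation, had 7.005, 30.4 and 17.7 CPM on pine, against 67.2, 77.0 and 46.6 CPM on aspen (log2 fold change -1.79, SE 0.40, adjusted p = 0.00551). In all 3, pine replicate 1 was the lowest library and no pine library reached the lowest aspen library. AA5_1 1357891 ran the other way, with 2282, 3712 and 4039 CPM on pine, against 1255, 1689.7 and 1811 CPM on aspen (log2 fold change 1.08, SE 0.26, adjusted p = 0.00925). Another such gene, annotated through the secretome, also rose on pine: AA5_1 1367686 had 1474, 1972 and 3521 CPM on pine, against 592, 589 and 889 CPM on aspen (log2 fold change 1.75, SE 0.31, adjusted p = 0.00173). With code prefix as a term in the fit, the calls of the 4 genes of the enzyme table were lost (adjusted p = 0.057 to 0.089).

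Pyranose oxidases (AA3_4) oxidise glucose at its second carbon and also yield hydrogen peroxide. AA3_4 1471985 had 6297, 5106 and 2459 CPM on pine, against 616, 827 and 1431 CPM on aspen, with all pine libraries above all aspen libraries (log2 fold change 2.27, SE 0.39, adjusted p = 0.00141). Its level on maltose was 955, 563 and 706 CPM, near that on aspen. By edgeR 0 of the 2 pyranose oxidases were lower (0 at an unadjusted p under 0.05 and 0 by DESeq2). The other member, AA3_4 1440372, lies 2 models away. It had 131, 228 and 37.2 CPM on pine, against 32.2, 38.0 and 85.3 CPM on aspen and was not called (log2 fold change 1.35, SE 0.52, adjusted p = 0.0645), with pine replicate 3 below the highest aspen library. It was called with a term for trim length, without pine replicate 3 (log2 fold change 1.79, adjusted p = 0.0078) and without aspen replicate 3 (adjusted p = 0.026).

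Among alcohol oxidases (AA3_3), which oxidise methanol and other primary alcohols, 1 of 3 was lower on pine, and 2 of 3 with library totals or without pine replicate 2 or aspen replicate 1. AA3_3 1414868 had 75.1, 92.3 and 53.3 CPM on pine, against 164, 137 and 147 CPM on aspen (log2 fold change -1.02, SE 0.21, adjusted p = 0.00385). AA3_3 1368318 had 1450.0, 1370.3 and 662 CPM on pine, against 1108, 2529 and 2530.2 CPM on aspen and was not called (log2 fold change -0.82, SE 0.36, adjusted p = 0.0993). AA3_3 1465271 had 233, 423 and 136 CPM on pine, against 423, 426 and 409.9 CPM on aspen (log2 fold change -0.67, SE 0.35, adjusted p = 0.168), with pine replicate 2 at the level of the aspen libraries. Of 14 aryl alcohol and glucose oxidases and their relatives (AA3_2), 2 were higher and 3 were lower on pine (median 0.13). That is 14.3% and 21.4%, against 15.2% and 15.1% of all genes. The counts were 1 and 5 with library totals (median -0.12) and 1 and 0 with code prefix as a term. AA3_2 1433476 rose on pine, with 16.5, 12.2 and 13.4 CPM on pine, against 4.98, 3.46 and 4.38 CPM on aspen (log2 fold change 1.72, SE 0.22, adjusted p = 0.000271). AA3_2 1429888 had 84.1, 78.2 and 78.5 CPM on pine, against 257, 210.4 and 174 CPM on aspen (log2 fold change -1.41, SE 0.31, adjusted p = 0.00513), and 0.800, 1.83 and 2.79 CPM on maltose, and its call was lost with code prefix as a term (adjusted p = 0.067). The woods did not overlap for either gene. In the annotation AA3_2 1433476 lies next to GH53 1363671, a gene described below that was lower on pine.

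Laccases (AA1_1) and the ferroxidase (AA1_2) are multicopper oxidases that use oxygen in place of peroxide. Of the 7 genes of this group, 1 was higher on pine and 0 were lower (median 0.60). At an unadjusted p under 0.05, and by DESeq2, 3 were higher and 0 were lower, while without pine replicate 1 there was 1 of each and without aspen replicate 1, with the replicate block or with the 6 wood libraries alone there were 2 higher. AA1_1 1434777 had 61.1, 15.0 and 14.8 CPM on pine, against 4.09, 4.69 and 5.09 CPM on aspen (log2 fold change 2.71, SE 0.48, adjusted p = 0.00167), but pine replicate 1 set the size of the change: without it the log2 fold change was 1.69. Its level on either wood was far below the 2629, 2870.4 and 1929 CPM on maltose. AA1_1 1366139 had 790.5, 584 and 1234 CPM on pine, against 394, 578 and 716 CPM on aspen (log2 fold change 0.63, SE 0.31, adjusted p = 0.139), with pine replicate 2 inside the aspen range. AA1_1 1477425 had 34.1, 37.3 and 40.3 CPM on pine, against 33.8, 19.9 and 23.1 CPM on aspen (log2 fold change 0.54, SE 0.22, adjusted p = 0.0809), a small gap with aspen replicate 1 just under the lowest pine library. The other 4 had log2 fold changes of -0.38 to 0.98, none called.

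GH10 endo-xylanases cut the xylose chain of glucuronoxylan, the xylan backbone. Of 6 genes, 3 were lower on pine and 0 were higher (0 at an unadjusted p under 0.05 and 0 by DESeq2), with a median of -1.27. Without pine replicate 3 the counts were the same and the median was -0.86. The family was picked because the study discussed it on these samples, so its count is not independent evidence. GH10 1395316 had 3.63, 2.94 and 3.38 CPM on pine, against 357, 342 and 284 CPM on aspen, with no overlap (log2 fold change -6.62, SE 0.29, adjusted p = 5.33e-08). Its log2 fold change over maltose was 1.71 on pine and 8.34 on aspen. CBM1-GH10 1426850, which carries a cellulose-binding module, had 37.0, 52.3 and 27.7 CPM on pine, against 509, 211 and 556 CPM on aspen (log2 fold change -3.45, SE 0.37, adjusted p = 7.5e-05). The lowest aspen library of this gene was still above every pine library. GH10 1419320 had 29.6, 18.7 and 8.197 CPM on pine, against 80.6, 76.6 and 89.6 CPM on aspen (log2 fold change -2.12, SE 0.37, adjusted p = 0.0014). The 3 other GH10 genes overlapped between woods. Of these, CBM1-GH10 1437837, which lies 2 models from 1426850, had 47.8, 114 and 13.1 CPM on pine, against 78.4, 50.5 and 104 CPM on aspen (log2 fold change -0.41, SE 0.55, adjusted p = 0.605). CBM1-GH10 1435885 had 148, 338 and 29.6 CPM on pine, against 244, 139.7 and 304 CPM on aspen (log2 fold change -0.41, SE 0.58, adjusted p = 0.619). In both, pine held the highest and the lowest library. GH10 1362920 stayed low, with 4.15, 5.06 and 4.66 CPM on pine, against 2.40, 3.13 and 6.36 CPM on aspen (log2 fold change 0.22, SE 0.34, adjusted p = 0.65).

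Other enzymes strip acetyl, feruloyl or lignin-linked glucuronoyl esters from hemicellulose. Of 12 such esterase genes, 8 were lower on pine, 4 were not called and 0 were higher (0 at an unadjusted p under 0.05 and 0 by DESeq2), with a median of -1.17. The count of lower genes was 5 without aspen replicate 2 or 3, with the 6 wood libraries alone or with code prefix as a term. Without pine replicate 3 that count was 7 and the median was -0.81. CBM1-CE1 1377160 had 6.11, 8.93 and 8.12 CPM on pine, against 308, 420.2 and 289 CPM on aspen (log2 fold change -5.46, SE 0.28, adjusted p = 1.55e-07). Its direct neighbour CBM1-CE1 1377173 overlapped between the woods, with 85.1, 218 and 51.4 CPM on pine, against 55.9, 66.3 and 136 CPM on aspen (log2 fold change 0.46, SE 0.56, adjusted p = 0.571). CBM1-CE1 1392142 had 20.8, 21.8 and 6.11 CPM on pine, against 175, 92.2 and 222 CPM on aspen (log2 fold change -3.32, SE 0.43, adjusted p = 0.000289). Both CE1 genes that fell, members of a family of acetylxylan and feruloyl esterases, had no overlap between the woods.

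CE15 glucuronoyl esterases split the ester bond between lignin and the glucuronic acid of xylan. CE15 1470261 had 42.2, 36.6 and 22.4 CPM on pine, against 172, 157 and 175 CPM on aspen (log2 fold change -2.32, SE 0.40, adjusted p = 0.00144). CBM1-CE15 1470260, the model before it, had 18.4, 53.2 and 14.8 CPM on pine, against 50.2, 67.6 and 114 CPM on aspen, where 1 pine library passed the lowest aspen library (log2 fold change -1.42, SE 0.48, adjusted p = 0.04). The call of 1470260 was lost by DESeq2 (adjusted p = 0.082), with the 6 wood libraries alone or code prefix as a term, and without pine replicate 1 or 3 or aspen replicate 2 or 3; without pine replicate 2 its log2 fold change was -2.22. CE16 1437703, of a family of acetyl esterases, had 57.3, 54.8 and 22.1 CPM on pine, against 296, 257 and 282 CPM on aspen (log2 fold change -2.64, SE 0.42, adjusted p = 0.000888), and here the highest pine library was well below the lowest aspen library.

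Further glycosidases remove the side chains of xylan. Of 6 genes, 1 was higher and 1 was lower on pine (median 0.36), while the counts were 0 and 2 with library totals, by DESeq2 or without pine replicate 2, 2 and 0 without pine replicate 3, 0 and 0 with code prefix as a term or without aspen replicate 3, and 0 and 1 without any other library. GH115 1426831, of the family of alpha-glucuronidases that release glucuronic acid from xylan, had 152, 140.3 and 46.4 CPM on pine, against 265, 320.4 and 429 CPM on aspen (log2 fold change -1.58, SE 0.46, adjusted p = 0.0199), and its call was lost without pine replicate 3 (adjusted p = 0.051), without aspen replicate 3 (adjusted p = 0.06) and with code prefix as a term. GH43 1435501, of a family of arabinofuranosidases and xylosidases, had 643, 669 and 108 CPM on pine, against 187, 161 and 169.9 CPM on aspen. Pine replicate 3 lay below every aspen library, and the call (log2 fold change 1.45, SE 0.51, adjusted p = 0.0451) was lost by DESeq2, with library totals and when any 1 library other than pine replicate 3 was left out. GH51 1357629 had 377, 509 and 153 CPM on pine, against 328, 295 and 368 CPM on aspen (log2 fold change 0.07, SE 0.33, adjusted p = 0.898), again with pine replicate 3 lowest. GH43 408613 and GH51 1462467 were not called, at log2 fold changes of 0.92 and 0.66, nor was GH43-CBM35 1445623 at -0.94.

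Mannan-active enzymes, which act on the main softwood hemicellulose, showed no called increase on pine: of 9 tested (10 listed), 0 were higher and 2 were lower, with a median of 0.23. At an unadjusted p under 0.05, and by DESeq2, 1 was higher. The 2 that fell were GH5_7 endo-mannanases 2 models apart, and 1 fell without pine replicate 2 or aspen replicate 1 or 3. GH5_7 236998 had 1.53, 1.54 and 1.37 CPM on pine, against 5.66, 4.08 and 3.79 CPM on aspen (log2 fold change -1.61, SE 0.25, adjusted p = 0.000883). GH5_7 1388575 had 19.7, 10.4 and 3.46 CPM on pine, against 34.0, 21.8 and 34.8 CPM on aspen (log2 fold change -1.43, SE 0.45, adjusted p = 0.0287), with a call lost in these 3 settings, with the 6 wood libraries alone and with a term for trim length or for code prefix; without pine replicate 1 its log2 fold change was -2.12. The 7 others had log2 fold changes of -0.76 to 0.54. Without pine replicate 2 the list median was -0.41, and with library totals it was -0.05. For all 9, pine replicate 3 was the lowest pine library, and without it the median was 0.40, with 1 higher and 2 lower.

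Of 14 pectin-active enzymes, 3 were higher and 1 was lower on pine (median 0.21). That is 21.4% and 7.14%, against 15.2% and 15.1% of all genes. The counts were 1 and 3 with library totals, and 1 and 1 without pine replicate 2 or any 1 aspen replicate. They were 3 and 3 without pine replicate 1, 3 and 2 by DESeq2 and 2 and 2 with the replicate block. Without pine replicate 3 they were 4 and 1, with a median of 0.58. GH53 1363671, of the endo-galactanase family that acts on galactan side chains of pectin, had 50.1, 91.2 and 23.4 CPM on pine, against 243, 155 and 213 CPM on aspen (log2 fold change -1.89, SE 0.42, adjusted p = 0.00576). GH28 688728, of the polygalacturonase family that cuts the pectin backbone, had 147, 483 and 167 CPM on pine, against 114, 108 and 101 CPM on aspen (log2 fold change 1.30, SE 0.44, adjusted p = 0.0403). Pine replicate 2 set that value: without it the log2 fold change was 0.54 (adjusted p = 0.29). Its call was also lost with library totals and without any 1 aspen replicate. The 2 other genes called higher were of GH78, a family of alpha-rhamnosidases, and overlapped between the woods.

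Proteins that bind crystalline cellulose varied widely among the pine replicates. Of 22 proteins with a CBM1 cellulose-binding module, 10 were lower on pine and 0 were higher (0 at an unadjusted p under 0.05 and 0 by DESeq2), with a median of -1.27. This list shares genes with the xylanase, esterase, endoglucanase, beta-glucosidase and AA9 lists, so its counts and theirs are not independent of each other. In 20 of the 22, pine replicate 3 was the lowest pine library. The summed level of the 22 was 3071, 6701 and 1244 CPM on pine, against 6110.0, 4035 and 7161 CPM on aspen, so that pine replicates 1 and 3 lay below every aspen library and pine replicate 2 within their range. Without pine replicate 3 the counts were 9 and 0 and the median -0.87, and without pine replicate 2 they were 12 and 0 and -2.02.

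Cellobiohydrolases release cellobiose from chain ends. Of 4, 1 was lower on pine and 0 were higher (0 at an unadjusted p under 0.05 and 0 by DESeq2). The list median was -1.08, and it was -0.68 without pine replicate 3 and -1.98 without pine replicate 2. GH7 1366028 had 24.6, 20.0 and 5.63 CPM on pine, against 239, 81.5 and 243 CPM on aspen (log2 fold change -3.49, SE 0.56, adjusted p = 0.000978). The others spread widely over the pine cultures. GH7 1424818 had 2460.1, 6235 and 441 CPM on pine, against 2731, 1699 and 2639 CPM on aspen (log2 fold change 0.37, SE 0.79, adjusted p = 0.754), so that pine held both the highest and the lowest library. CBM1-GH6 1357326 had 489, 1161 and 93.4 CPM on pine, against 1043, 784 and 1415 CPM on aspen (log2 fold change -0.89, SE 0.72, adjusted p = 0.369). GH7 1389216 had 67.8, 210.4 and 61.8 CPM on pine, against 175, 164 and 473 CPM on aspen (log2 fold change -1.26, SE 0.71, adjusted p = 0.197). Both overlapped between the woods. Cellobiose dehydrogenase, which joins a haem domain (AA8) to a sugar-oxidising domain (AA3_1), is an electron donor of the monooxygenases described below, and its gene AA8-AA3_1 1401955 had 192, 362 and 59.8 CPM on pine, against 363, 303 and 616 CPM on aspen (log2 fold change -1.06, SE 0.63, adjusted p = 0.218), the lowest value again in pine replicate 3. AA8-CBM1 1473160, a haem domain with a cellulose-binding module, was lower on pine, with 3.81, 1.57 and 4.58 CPM on pine, against 8.61, 8.997 and 7.04 CPM on aspen (log2 fold change -1.31, SE 0.35, adjusted p = 0.0138), a call lost with code prefix as a term.

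Endoglucanases, which cut within glucan chains, gave 1 higher and 3 lower of 11 (median -0.51). That is 9.1% and 27.3%, against 15.2% and 15.1% of all genes. With library totals, with code prefix as a term or without pine replicate 1 or 2 or aspen replicate 1 or 2, 0 were higher. Without pine replicate 3, by DESeq2 or with a term for trim length, 2 were higher. CBM1-GH5_5 1434718 had 23.3, 17.3 and 5.30 CPM on pine, against 257, 96.0 and 224 CPM on aspen (log2 fold change -3.65, SE 0.53, adjusted p = 0.000547). GH131 1376091 had 1.04, 2.26 and 0.241 CPM on pine, against 11.3, 5.22 and 10.1 CPM on aspen (log2 fold change -2.89, SE 0.61, adjusted p = 0.00422), and without pine replicate 2 its log2 fold change was -3.73. Neither gene overlapped between the woods. Beta-glucosidases, which release glucose from cellobiose, gave 1 higher and 3 lower of 9 (median -0.50). GH3 1434274 rose on pine, with 155, 245 and 187 CPM on pine, against 23.2, 48.0 and 52.6 CPM on aspen (log2 fold change 2.25, SE 0.30, adjusted p = 0.0003), while on maltose it had 38.9, 37.7 and 48.4 CPM. CBM1-GH3 1404940 had 16.5, 25.4 and 3.29 CPM on pine, against 73.9, 36.4 and 91.7 CPM on aspen (log2 fold change -2.15, SE 0.56, adjusted p = 0.0125), and -2.76 on the log2 scale without pine replicate 2. GH1 1449232 had 29.1, 19.0 and 10.8 CPM on pine, against 50.3, 61.1 and 57.7 CPM on aspen (log2 fold change -1.52, SE 0.32, adjusted p = 0.0045). Both of these fell on pine with no overlap.

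AA9 lytic polysaccharide monooxygenases (LPMOs) cleave cellulose oxidatively. Of 15, 4 were higher and 4 were lower on pine, with a median of 0.24. Each count is 26.7%, against 15.2% and 15.1% of all genes. With library totals (median -0.02) or without pine replicate 2 (median -0.31), 3 were higher and 5 were lower. With code prefix as a term, 3 were higher and 2 were lower. This family too was picked because the study discussed it on these samples. AA9 1466495 had 39.6, 173 and 38.3 CPM on pine, against 12.5, 8.41 and 17.4 CPM on aspen, with 0.178, 0.221 and 0.263 CPM on maltose (log2 fold change 2.71, SE 0.51, adjusted p = 0.00228). Pine replicate 2 was the highest library, and without it the log2 fold change was 1.61. AA9 1464041 had 658, 1118 and 942 CPM on pine, against 289, 287 and 282 CPM on aspen (log2 fold change 1.66, SE 0.24, adjusted p = 0.000459). AA9 1440889 had 389.8, 507 and 574 CPM on pine, against 163, 206 and 229.7 CPM on aspen (log2 fold change 1.30, SE 0.23, adjusted p = 0.00171). In both, the lowest pine library was above the highest aspen library. AA9 1470943 had 25.1, 39.9 and 41.2 CPM on pine, against 20.1, 18.7 and 19.9 CPM on aspen, a smaller change (log2 fold change 0.86, SE 0.27, adjusted p = 0.0297) whose call was lost with library totals, with code prefix as a term and when any 1 library other than pine replicate 1 was left out.

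The 4 AA9 genes that fell on pine were led by AA9 1417214, with 31.5, 36.9 and 11.5 CPM on pine, against 146, 90.1 and 172 CPM on aspen (log2 fold change -2.35, SE 0.59, adjusted p = 0.0102), a call lost with code prefix as a term (adjusted p = 0.054). AA9 1423642 had 5.79, 10.1 and 5.30 CPM on pine, against 18.7, 21.6 and 41.1 CPM on aspen (log2 fold change -1.94, SE 0.36, adjusted p = 0.00204). AA9 1368522 had 9.92, 11.6 and 5.95 CPM on pine, against 30.6, 12.9 and 25.3 CPM on aspen (log2 fold change -1.32, SE 0.32, adjusted p = 0.00909), where pine replicate 2 came close to aspen replicate 2. AA9-CBM1 1428145 had 164, 324 and 55.0 CPM on pine, against 523, 399 and 762 CPM on aspen (log2 fold change -1.63, SE 0.50, adjusted p = 0.0261), with a call lost without pine replicate 1 or aspen replicate 1 or 3 and with code prefix as a term, and a log2 fold change of -2.36 without pine replicate 2. The woods did not overlap for these 4 genes. Of the 7 not called, AA9 1374028 had 420.2, 909.7 and 73.2 CPM on pine, against 822, 609.9 and 770.3 CPM on aspen (log2 fold change -0.65, SE 0.81, adjusted p = 0.577). AA9 793241 had 20.0, 58.3 and 11.7 CPM on pine, against 19.7, 12.8 and 26.5 CPM on aspen (log2 fold change 0.61, SE 0.60, adjusted p = 0.467). In both, the pine libraries spanned the aspen libraries.

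**Figure D4:**
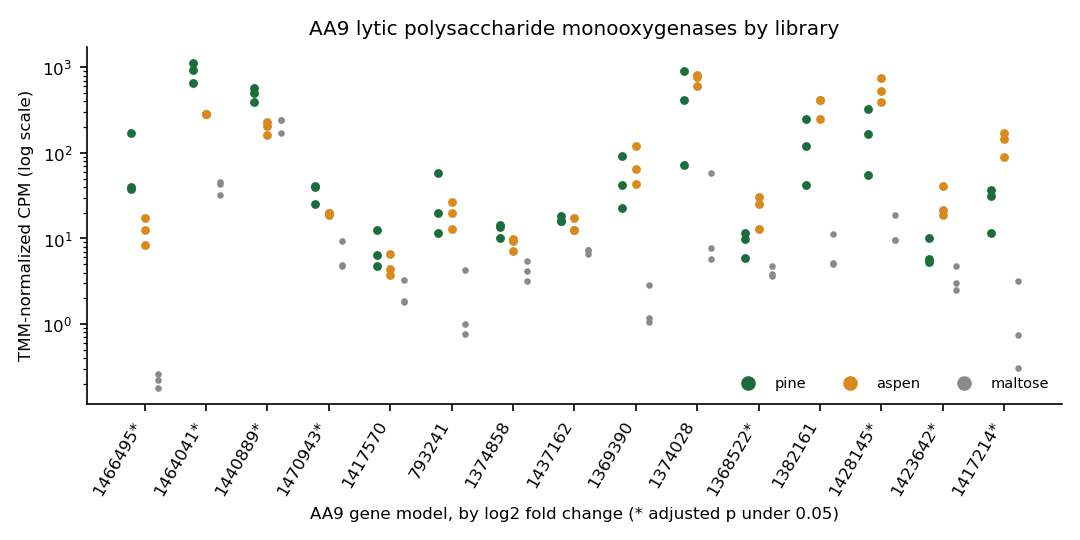
Levels of the 15 AA9 genes in 3 pine, 3 aspen and 3 maltose libraries (points), as TMM-normalized CPM on a log axis, ordered by log2 fold change of pine over aspen. Asterisks mark an adjusted p under 0.05. The 4 starred genes at the left end are higher on pine and the other 4 starred genes, at the right, are lower on pine, with no overlap between the woods in either set.

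The spread among pine cultures followed gene groups. Relative to the pine mean, the median member of the CBM1 list stood at 0.20, 1.16 and -1.31 on the log2 scale in pine replicates 1, 2 and 3, and the median cellobiohydrolase at 0.38, 1.38 and -1.66. Within aspen the CBM1 list stood at 0.17, -0.56 and 0.42. The glyoxal oxidases behaved otherwise, at -1.40, 0.67 and 0.60 in the pine replicates, and the median class II peroxidase at -0.25, 0.08 and 0.42. Pine replicate 3 was thus low for cellulose-binding proteins and not for peroxidases, and pine replicate 1 was low for glyoxal oxidases. The summed class II level, on pine mostly from MnP 1468611 and MnP 1436321, was 478, 1370.4 and 2439.8 CPM on pine, against 3788, 5729 and 3222 CPM on aspen. What set these cultures apart was not tested. Fungal wall glucanases and P450s of the CYP4/CYP19/CYP26 class deviated in no pine library by more than 0.28.

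**Figure D5:**
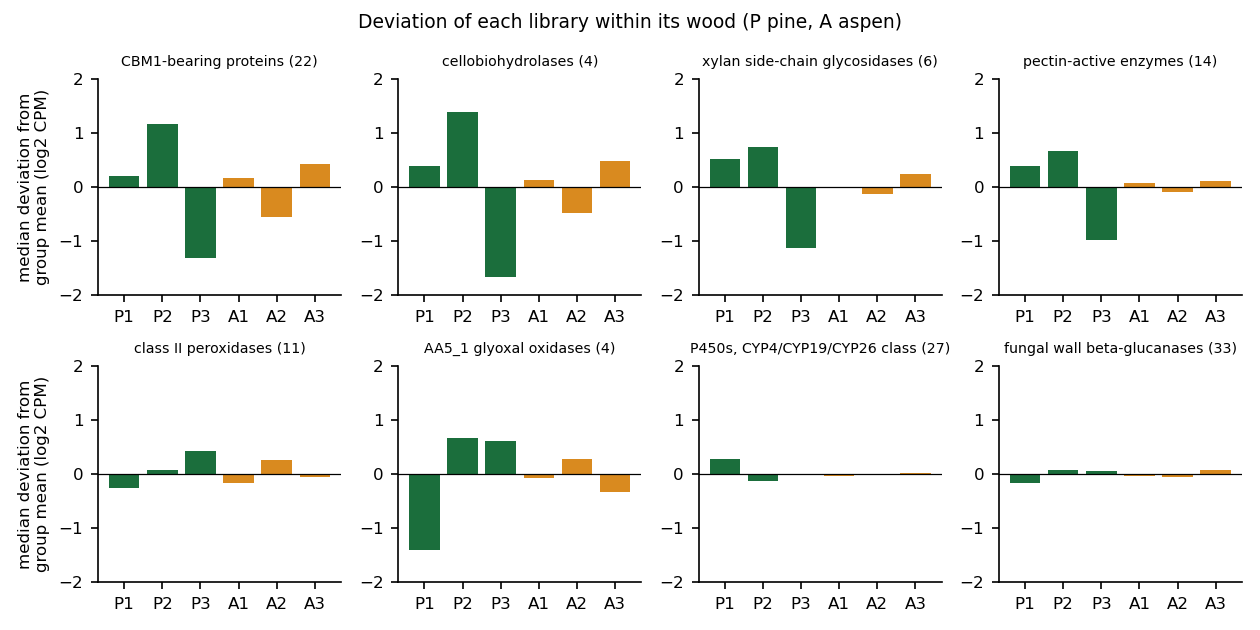
Median deviation of the members of 8 lists in each library from the mean of its own wood, in log2 CPM (pine replicates P1 to P3 and aspen replicates A1 to A3; number of genes in brackets). Pine replicate 3 lies below its group for the cellulose, xylan side-chain and pectin lists, and pine replicate 1 for the glyoxal oxidases.

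The largest increase on pine among annotated enzymes was that of a cytochrome P450. These haem monooxygenases insert oxygen into small molecules and in white-rot fungi are known for the turnover of lignin fragments and resin compounds. P450 1297918 had 3850.2, 1762 and 1861 CPM on pine, against 329, 307 and 334 CPM on aspen (log2 fold change 2.95, SE 0.34, adjusted p = 0.000135). P450 1362558, 3 models away, had 2346, 1313 and 1964 CPM on pine, against 288, 333 and 326 CPM on aspen (log2 fold change 2.57, SE 0.24, adjusted p = 3.04e-05). P450 1362447 had 190.0, 168 and 177 CPM on pine, against 21.0, 39.8 and 20.1 CPM on aspen (log2 fold change 2.73, SE 0.31, adjusted p = 0.000122). All 3 belong to the CYP4/CYP19/CYP26 class of the annotation, did not overlap between the woods, and were low on maltose. Their log2 fold changes over maltose were 7.83 on pine and 4.88 on aspen for 1297918, 6.72 on pine and 4.15 on aspen for 1362558, and 7.03 on pine and 4.30 on aspen for 1362447. Directly after P450 1297918 lies AA3_2 1362859, with 34.8, 17.7 and 19.0 CPM on pine, against 8.72, 13.0 and 11.7 CPM on aspen (log2 fold change 1.10, SE 0.28, adjusted p = 0.0105), a call lost with library totals or with code prefix as a term.

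Over the whole family, 15 of 61 P450s were higher and 15 were lower on pine (median 0.05). Each count is 24.6%, against 15.2% and 15.1% of all genes. The counts were 10 and 19 with library totals (median -0.22) and 9 and 10 with code prefix as a term. Without pine replicate 1 the median was -0.10. Of 27 in the CYP4/CYP19/CYP26 class, 11 were higher and 6 were lower (median 0.41), or 8 and 7 with library totals and 7 and 4 with code prefix as a term. Of 27 in the CYP2 class, 2 were higher and 8 were lower (median -0.35), or 0 and 11 with library totals and 0 and 5 with code prefix as a term, and the higher count was 4 without pine replicate 3 and 1 without aspen replicate 2 or 3 or with a term for trim length. The difference between the classes was not tested. P450 1410653 of the CYP2 class had 1.61, 1.37 and 0.804 CPM on pine, against 7.29, 7.15 and 7.69 CPM on aspen (log2 fold change -2.53, SE 0.29, adjusted p = 0.000112), a low level on both woods. P450 1381215 of that class had 9.05, 3.11 and 6.55 CPM on pine, against 26.1, 24.5 and 24.6 CPM on aspen (log2 fold change -2.003, SE 0.30, adjusted p = 0.000588). P450 1362757 of the CYP4/CYP19/CYP26 class also fell on pine, with 62.8, 25.9 and 24.4 CPM on pine, against 278, 129 and 136 CPM on aspen (log2 fold change -2.26, SE 0.38, adjusted p = 0.00124). The woods did not overlap for these 3 genes.

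Genes for the turnover of the fungus's own wall were more often higher than lower on pine with TMM scaling, though not with library totals. Fungal walls are built of beta-1,3 and beta-1,6 glucans and chitin. Of 33 wall glucanases, 14 were higher and 5 were lower on pine (median 0.53), while with library totals as the scaling the counts were 8 and 9, and with code prefix as a term 4 and 3. Without pine replicate 2 or aspen replicate 1, 9 were higher and 4 were lower, and without aspen replicate 2, 8 and 4. GH16 1367729 had 95.1, 78.4 and 82.2 CPM on pine, against 24.2, 12.8 and 16.2 CPM on aspen (log2 fold change 2.27, SE 0.24, adjusted p = 7.74e-05). GH16 1422852 had 627, 830.0 and 676 CPM on pine, against 272, 195 and 249 CPM on aspen (log2 fold change 1.57, SE 0.21, adjusted p = 0.000314). GH16 is a family of beta-1,3 and mixed-linkage glucanases, and both members lay above the aspen libraries in every pine library. GH5_9 1421509, of the exo-beta-1,3-glucanase subfamily and annotated through the secretome, had 175, 398 and 447 CPM on pine, against 34.9, 98.5 and 99.3 CPM on aspen (log2 fold change 2.13, SE 0.40, adjusted p = 0.00229). Genes of subfamilies known for the cutting of beta-1,6-glucan went the other way. GH30_3 1430584 had 181, 121 and 94.3 CPM on pine, against 451, 433 and 564 CPM on aspen (log2 fold change -1.87, SE 0.27, adjusted p = 0.000513), and GH5_15 1432550 had 95.4, 55.9 and 50.6 CPM on pine, against 244, 188 and 235 CPM on aspen (log2 fold change -1.72, SE 0.30, adjusted p = 0.00144).

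Chitin-active enzymes split, 7 higher and 5 lower of 19 (median 0.66), with 3 lower without pine replicate 2 or with a term for trim length or code prefix. GH18 1464569, of the chitinase family, had 44.4, 54.5 and 96.3 CPM on pine, against 6.26, 7.01 and 12.5 CPM on aspen (log2 fold change 2.92, SE 0.42, adjusted p = 0.000504), and its log2 fold change was 2.23 with code prefix as a term. CE4 1433098, of the family that holds chitin deacetylases, had 307, 689 and 501 CPM on pine, against 79.1, 92.7 and 87.9 CPM on aspen (log2 fold change 2.53, SE 0.27, adjusted p = 8.11e-05). Neither gene overlapped between the woods. The chitinase GH18-CBM5 1447824, which carries a chitin-binding module, had 213, 169 and 211 CPM on pine, against 646, 449.9 and 553 CPM on aspen (log2 fold change -1.48, SE 0.23, adjusted p = 0.000803), and GH18-CBM5 1463186 had 123, 79.5 and 54.0 CPM on pine, against 232, 143 and 211 CPM on aspen (log2 fold change -1.19, SE 0.28, adjusted p = 0.00808). These 2 were lower in every pine library than in any aspen library.

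Expansin-related proteins, small proteins linked to loosening of polysaccharide networks, were higher on pine in 7 of 10 genes and lower in 1 (median 1.13), with library totals in 6 and 1, and with code prefix as a term in 4 and 0. EXPN 1386069 had 36.5, 35.9 and 96.8 CPM on pine, against 12.4, 10.5 and 12.1 CPM on aspen (log2 fold change 2.27, SE 0.43, adjusted p = 0.00227), and without pine replicate 3 its log2 fold change was 1.63. EXPN 1422224 had 34.3, 46.4 and 39.3 CPM on pine, against 17.0, 10.4 and 9.41 CPM on aspen (log2 fold change 1.70, SE 0.29, adjusted p = 0.00127). EXPN 1439344 had 368, 458 and 1062 CPM on pine, against 231, 169 and 201 CPM on aspen (log2 fold change 1.65, SE 0.34, adjusted p = 0.00408), and 1.04 without pine replicate 3. These 3 had more in every maltose library than in any aspen library, with 390.3, 302 and 133 CPM on maltose for 1386069, 73.0, 57.0 and 36.4 CPM for 1422224 and 817, 777 and 1031 CPM for 1439344. EXP 148891, the member that fell, was low, with 0.288, 0.342 and 0.402 CPM on pine, against 0.601, 1.03 and 0.651 CPM on aspen (log2 fold change -1.15, SE 0.39, adjusted p = 0.0418), and its call was lost with DESeq2 size factors and when any 1 library other than aspen replicate 1 was left out. EXPN 1386069 lies 4 models from CE4 1433098.

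Glycosyltransferases, which build sugar chains, were higher on pine in 8 of 32 genes and lower in 3 (median 0.39), but with library totals in 4 and 5 with code prefix as a term in 1 and 0, and by DESeq2 in 13 and 4. They numbered 5 and 1 without pine replicate 2, 5 and 2 without pine replicate 3, 4 and 1 without aspen replicate 2, and 8 and 5 without pine replicate 1. GT8 1400833 had 124, 127 and 226 CPM on pine, against 47.2, 43.0 and 61.5 CPM on aspen (log2 fold change 1.65, SE 0.26, adjusted p = 0.000825). GT8 1464752 had 13.1, 6.57 and 7.39 CPM on pine, against 25.2, 25.6 and 14.5 CPM on aspen (log2 fold change -1.27, SE 0.30, adjusted p = 0.00792), a call lost with code prefix as a term. Neither overlapped between the woods. GH79 beta-glucuronidases were higher in 2 of 5 and lower in 0 (median 0.84), with the same counts at an unadjusted p under 0.05 and by DESeq2. GH79 1447349 had 503, 935 and 736 CPM on pine, against 247, 283 and 303 CPM on aspen (log2 fold change 1.39, SE 0.23, adjusted p = 0.00127). This gene was higher in every pine library. GH79 1413725 had 2.31, 9.17 and 3.62 CPM on pine, against 1.46, 1.56 and 1.12 CPM on aspen (log2 fold change 1.86, SE 0.45, adjusted p = 0.00919), and without pine replicate 2 its log2 fold change was 1.09 (adjusted p = 0.056). The call was also lost with code prefix as a term.

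Of 11 alpha-mannosidases, which trim mannose from glycoproteins, 1 was higher and 4 were lower on pine (median -0.16). That is 9.1% and 36.4%, against 15.2% and 15.1% of all genes. By DESeq2, with a term for trim length or without pine replicate 1 or 3, 2 were higher. The median was 0.14 without pine replicate 3. GH47 members went both ways: GH47 1423703 had 152, 285 and 169 CPM on pine, against 50.7, 75.9 and 82.2 CPM on aspen (log2 fold change 1.54, SE 0.28, adjusted p = 0.00179), and GH47 1436992 had 60.6, 39.0 and 38.1 CPM on pine, against 202, 127 and 146 CPM on aspen (log2 fold change -1.78, SE 0.25, adjusted p = 0.000387), neither with any overlap. Among the 7 starch and maltose hydrolases, 1 was higher on pine and 0 were lower (median 0.07). At an unadjusted p under 0.05 there was 1 of each, as there was with library totals and without pine replicate 1, and by DESeq2 2 were higher and 0 were lower. The gene that rose was GH15-CBM20 1507511, a glucoamylase with a starch-binding module, which had 663, 817 and 414 CPM on pine, against 60.6, 95.8 and 168 CPM on aspen (log2 fold change 2.54, SE 0.35, adjusted p = 0.000387). The other glucoamylase, GH15 1439526, had 91.2, 59.9 and 66.3 CPM on pine, against 56.2, 51.7 and 52.6 CPM on aspen (log2 fold change 0.44, SE 0.20, adjusted p = 0.122), a small gap with no overlap.

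Genes of unknown function held contrasts as wide as those of the peroxidases. Of 297 with a predicted signal peptide, 77 were higher and 41 were lower on pine (median 0.13), with library totals 54 and 62, and with code prefix as a term 38 and 25. The TMM counts are 25.9% and 13.8% of them, against 15.2% and 15.1% of all genes tested. Without aspen replicate 2 their count of higher genes was 51. Of 1810 with none, 272 were higher and 330 were lower (median -0.07), which is 15.0% and 18.2%, near the shares of all genes, and the counts were 151 and 477 with library totals and 98 and 177 with code prefix as a term. Gene 1448556, with no predicted signal peptide, had 9.71, 12.8 and 10.8 CPM on pine, against 998, 1853 and 1425 CPM on aspen (log2 fold change -7.00, SE 0.37, adjusted p = 1.6e-07). The 2 predicted secreted proteins that fell most, genes 1419800 and 1440356, lie 3 models apart. Gene 1419800 had 8.71, 23.2 and 14.5 CPM on pine, against 591, 605 and 633 CPM on aspen (log2 fold change -5.30, SE 0.44, adjusted p = 1.05e-05). Gene 1440356 had 0.634, 0.616 and 2.41 CPM on pine, against 53.7, 35.6 and 34.7 CPM on aspen (log2 fold change -5.12, SE 0.47, adjusted p = 2.04e-05), and without pine replicate 3 its log2 fold change was -6.04. For these 3 genes the pine libraries lay far below the aspen libraries. Gene 1435353, with a signal peptide and a putative endoglucanase-like domain, had 2.39, 4.79 and 5.22 CPM on pine, against 61.8, 75.3 and 53.7 CPM on aspen (log2 fold change -3.95, SE 0.30, adjusted p = 5.48e-06), while the neighbouring ferroxidase gene AA1_2 1425237 was not called (log2 fold change 0.60).

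On pine, gene 679895 of unknown function stood out, with 456, 1068 and 277 CPM on pine, against 16.6, 11.0 and 7.90 CPM on aspen (log2 fold change 5.66, SE 0.54, adjusted p = 3.16e-05) and 15.0, 14.1 and 6.74 CPM on maltose. Without pine replicate 2 its log2 fold change was 4.95. Gene 1369226, with a signal peptide and a DUF3455 domain, had 283, 98.1 and 112 CPM on pine, against 14.1, 4.61 and 8.67 CPM on aspen (log2 fold change 4.17, SE 0.47, adjusted p = 0.000107), and 3.53 without pine replicate 1. It lies 3 models from MnP 1468611. All pine libraries lay above all aspen libraries for both. Gene 1466783, also of unknown function, had 67.6, 23.8 and 78.1 CPM on pine, against 3.23, 1.96 and 2.10 CPM on aspen (log2 fold change 4.54, SE 0.47, adjusted p = 5.73e-05).

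A pair of genes with no recognised domain, whose proteins were detected in the pine secretome, reached the highest levels of the genes named here. Gene 1471500 had 10535, 16205 and 6025 CPM on pine, against 585, 633 and 1433 CPM on aspen (log2 fold change 3.63, SE 0.48, adjusted p = 0.00031), and 2.98 with code prefix as a term. Gene 1471512 had 10963, 16664 and 5596 CPM on pine, against 755, 674 and 1584 CPM on aspen (log2 fold change 3.46, SE 0.46, adjusted p = 0.000314). The 2 genes had similar levels in each of the 9 libraries, with 4258, 3532 and 1820.3 CPM on maltose for 1471500 and 3642, 3348 and 1916 CPM for 1471512. Whether the 2 models are near-identical copies was not tested. Only uniquely mapped reads were kept, so reads from any stretch common to both would be missing, and the separate values of the 2 genes are uncertain. Outside every annotated list, gene 1371554 had 2736, 5043 and 1372 CPM on pine, against 58.8, 33.7 and 23.7 CPM on aspen (log2 fold change 6.30, SE 0.54, adjusted p = 1.2e-05), and gene 1436847 had 433, 666 and 1347 CPM on pine, against 17.2, 19.2 and 16.4 CPM on aspen (log2 fold change 5.53, SE 0.43, adjusted p = 5.56e-06). In the other direction gene 1435541 had 4.24, 5.75 and 7.19 CPM on pine, against 458, 492 and 474 CPM on aspen (log2 fold change -6.38, SE 0.26, adjusted p = 3.86e-08). These 3 had wide gaps between the woods. None is in the lists taken from the study, and the reference annotation held no product names, so what they encode was not looked up. Gene 1105309 was at 0 in all 3 pine libraries and had 68, 4 and 2 raw counts on aspen, so that its call rested on aspen replicate 1 and was lost without it (adjusted p = 0.09). It was also lost without pine replicate 2 and with code prefix as a term, and no fold change is given for it.

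Transcripts were also grouped by the study's peptide detection in the secretomes of these cultures, a list made on matching material and so not independent of it. Of 18 genes whose protein was detected in the aspen but not the pine secretome, 1 was higher and 9 were lower on pine (median -0.70), with 2 higher with DESeq2 size factors or without pine replicate 1 and 3 higher by DESeq2's test or with the replicate block. Of 14 detected in the pine but not the aspen secretome, 6 were higher and 1 was lower (median 0.97), or 5 and 3 with library totals, 6 and 3 without pine replicate 1, 6 and 2 with the replicate block and 5 and 2 with a term for trim length. Of 96 detected in both, 19 were higher and 16 were lower (median 0.12), or 12 and 22 with library totals, 7 and 11 with code prefix as a term, and 12 and 14, 11 and 12, and 11 and 14 without pine replicate 2, aspen replicate 1 and aspen replicate 2 in turn. Gene 1369226, far higher on pine in its transcript, belongs to the group detected in aspen only. Gene 1438060, with a peptidase-like domain, belongs to the group detected in pine only and was lower there, with 167, 119 and 157 CPM on pine, against 327, 461 and 401 CPM on aspen (log2 fold change -1.43, SE 0.27, adjusted p = 0.00256).

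Called genes were seldom in long runs along the annotation. Runs of at least 5 adjacent models called in the same direction numbered 5. The longest, of 7 models, was lower on pine throughout, with log2 fold changes of -1.57 to -0.93, and holds no gene of the enzyme lists. The longest runs of genes higher on pine had 6 models, and 1 of these held GT2 1467191, named here after its values were seen, at a log2 fold change of 0.97. Among the named genes, adjacent members of a family differed in the CE1 pair and in part of the peroxidase group above. In contrast, both AA5_1 neighbours, both CE15 neighbours, and the adjacent MnP 1464049 and LiP 1431101 fell on pine together.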

How the data were processed

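RNA-seq of poly-A RNA from mycelium with the remaining substrate was sequenced as paired ends. The authors trimmed the reads, mapped them with TopHat, keeping unique hits only, to the v1.0 genome of strain BRFM 310, and counted them per gene model with HTSeq (the submitters' notes also name DESeq 1.5). The deposited values are raw counts. Between 18.0% and 28.0% of the counts from 1 to 49 were odd, so most fragments appear to be counted as both mates, and library totals overstate independent fragments. Groups came from the sample titles. Genes with a mean count of at least 5 were fitted with edgeR 4.0.16 in R 4.3.3 (TMM, glmQLFit, all 9 libraries in 1 fit so that they share the estimate of the spread), with the contrast pine minus aspen. The p-values measure the spread between these cultures only. Dividing the unsigned log2 fold change by sqrt(F) gave its SE. In simulated counts for this comparison over 11130 genes, 50 genes were changed at each fold, far fewer than were called in the data. Of these, 52% of genes changed 2-fold, 96% of those changed 4-fold and 100% of those changed 8-fold were called.

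Members and lists were chosen with earlier results of these data known. The lists follow the annotation columns of the study (CAZy families, P450 classes, unknown function, secretome detection), and no set test was run. Genes were named by rule: every tested AA9, class II peroxidase, GH10, AA3_4, CE1, CE15 and GH7 gene, members of lists of up to 7 genes, the 3 largest called and non-overlapping changes in each direction per list, the 10 largest over the tables and the 2 largest elsewhere. The families named first were those for which the study reported wood-dependent members on these samples, so their results are not independent evidence. The reference annotation was used only for the order of gene models. Alternatives were DESeq2 size factors, library totals, the Wald test of DESeq2 1.42.0, the 6 wood libraries alone, other count filters, a replicate block, trim length or library code prefix as a term, and leaving out each wood library.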

Additional observations from a re-analysis of the deposited data

How the results depend on the processing

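Most called directions held under every alternative. Of the 3369 called genes, 1 turned its sign without aspen replicate 1 and 0 did so in any other refit. Of 156 genes named by the rule, 111 were called, all 111 kept their sign in every refit, and 79 kept their call in every one. Many of the 111 were picked for large changes without overlap, a choice that favours such steadiness. With library totals in place of TMM factors, 906 genes were called higher and 2709 lower on pine, and 25 higher at least 4-fold. With the library code prefix as a term the counts were 682 and 771, and 19 higher at least 4-fold; 31 named genes lost their call there, and 1444 of the 3369 calls were kept. No pine library carries the other prefix, so this term rests on the maltose and aspen libraries. By DESeq2's Wald test 144 genes were at least 4-fold higher and 82 at least 4-fold lower, and with the 6 wood libraries alone 23 were at least 4-fold higher. Leaving out 1 library gave 1056 to 1974 genes higher and 1102 to 2198 lower, with 22 to 73 and 33 to 55 at least 4-fold; the lowest were without aspen replicate 1 (1056 and 22) and without pine replicate 2 (1102 and 33). The causes were not tested.

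The deviations of same-numbered pine and aspen libraries correlated at 0.306, 0.0205 and 0.0136, and not every library correlated best with its own number. Those of differently numbered libraries correlated at -0.210 to 0.217. Whether the replicate numbers pair the samples was not tested. The replicate block was fitted on the 6 wood libraries alone. With it, 1895 genes were called higher and 1718 lower, with 70 and 41 at least 4-fold. Without it, the same 6 libraries gave 1417 higher and 1348 lower, with 23 and 40 at least 4-fold.

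In the simulation at these depths and this number of libraries, 52% of 2-fold changes were called, so a gene without a call may still differ by that much. Only 50 genes were changed at each fold, none of them at the lowest levels, while 3369 genes were called in the data. The adjusted p depends on how many genes change, so 52% is not the share to be expected in this comparison. Of the 3369 calls, the fewest were kept without aspen replicate 1 (2146), pine replicate 2 (2156) or aspen replicate 2 (2330). The effects of tree species, milling and any difference in bark cannot be told apart. Code prefix also changed largely with the wood, so its effect cannot be fully separated from theirs.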
